A study of Homo sapiens with 63 samples.

Results

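The mRNAs of 10 subunits of eukaryotic initiation factor 3 (eIF3) were followed through polysome gradients of HEK293 cells, a human embryonic kidney line. They were taken by name as 5 subunits whose mRNAs are classed as TOP (EIF3E, EIF3F, EIF3H, EIF3K and EIF3L) and 5 that are not (EIF3A, EIF3B, EIF3D, EIF3G and EIF3I). They are 10 of the 11074 genes in the table, and the rule sets no threshold on measured values. The cells were growing in log phase in DMEM with FBS and P/S, or kept for 2 h in medium without FBS (serum starved), or kept for 1 h in EBSS with MEM vitamins, FBS and P/S (amino acid starved). All cells, the log phase cells included, received cycloheximide, which holds ribosomes on mRNA, in their own medium before lysis. Poly(A)+ RNA of fractions 3 to 22 was sequenced, which gave 20 fractions per gradient and 60 in all. There was 1 gradient per condition. Differences between conditions thus lack replicates, and p-values are not given.

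eIF3 is the largest initiation factor: it binds the small ribosomal subunit and helps bring mRNA and the other factors to it. Its PCI/MPN core is built from the products of EIF3A, EIF3C, EIF3E, EIF3F, EIF3H, EIF3K, EIF3L and EIF3M, and the products of EIF3B, EIF3G and EIF3I form a separate module, with EIF3D at the edge and EIF3J loosely attached. All 5 TOP subunits thus belong to the core, whereas EIF3A is the only non-TOP subunit of these that does. TOP mRNAs begin with a C followed by a run of pyrimidines, the terminal oligopyrimidine tract, and include those of ribosomal proteins and elongation factors. In mammalian cells their translation depends strongly on mTORC1, which senses growth factors and amino acids, and on the RNA-binding protein LARP1.

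The start sites are shown because the tract is what separates the groups by name. RefSeq entries on GRCh38.p14 were matched for 5 of the 10 subunits (EIF3B, EIF3D, EIF3F, EIF3I and EIF3K). Each sequence below holds the 15 bases before the annotated start and the 15 bases from it on, on the strand of the gene. Capitals mark an unbroken run of C and T of at least 5 bases that begins with C at the start.
EIF3F (TOP), chr11:7987322-7987351, plus strand: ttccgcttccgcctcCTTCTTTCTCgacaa
EIF3K (TOP), chr19:38619173-38619202, plus strand: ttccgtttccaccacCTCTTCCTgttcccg
EIF3D (non-TOP), chr22:36529152-36529181, minus strand: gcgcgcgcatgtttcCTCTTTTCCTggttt
EIF3B (non-TOP), chr7:2354812-2354841, plus strand: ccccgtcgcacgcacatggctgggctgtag
EIF3I (non-TOP), chr1:32222392-32222421, plus strand: accttttccggtcttactcacgttgcggcc
The run was 10 bases long in EIF3F, 8 in EIF3K and 10 in EIF3D. EIF3D therefore goes against its non-TOP class by these letters. The starts of EIF3B and EIF3I were not pyrimidine runs, and the EIF3B entry lies inside the gene's annotated span (chromosome 7, 2354086 to 2380745) rather than at its outer end. Such a run stood at 1404 of 27305 promoter entries (5.14%), at 668 of 8699 entries of tested genes (7.68%) and at 47 of 63 entries of ribosomal protein genes (74.6%). These letters describe an annotated start and do not show where transcription began in these cells.

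The remaining subunits are placed by the same gene table. EIF3E (108201216 to 108248717) and EIF3H (116642130 to 116766374) lie on chromosome 8. EIF3L lies on chromosome 22 (37849419 to 37889407), EIF3A on chromosome 10 (119033670 to 119080817) and EIF3G on chromosome 19 (10115014 to 10119899). Pseudogenes of EIF3E, EIF3F, EIF3I, EIF3K and EIF3L are annotated. Reads that match a copy could have been divided between it and the gene, so values of these 5 are less certain.

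The authors' values are called signal here. Fraction totals ran from 36830 to 66981627 in log phase, 179014 to 26736091 in serum starvation and 247998 to 29912342 in amino acid starvation. Each fraction thus carries an unknown scale from the authors, and library depth is unknown. The log phase total peaked at fraction 18 with 17.1%, and both starved totals peaked at fraction 9 with 16.4% and 16.3%. Whether low or high numbers are the heavier end is not in the labels. The 3 kinds of value used are as follows. The position is the mean fraction number weighted by signal, which carries that scale. Positions with equal totals weight every fraction alike. Signal per 1000000 of the fraction's own total (ppm) is free of the scale.

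In log phase, the TOP subunits lay at lower-numbered positions than the non-TOP subunits, although the groups overlapped. The TOP positions were 15.76 for EIF3F, 17.08 for EIF3L, 17.15 for EIF3K, 17.60 for EIF3H and 17.72 for EIF3E. The non-TOP positions were 16.26 for EIF3G, 18.00 for EIF3A, 18.71 for EIF3B, 18.81 for EIF3D and 19.03 for EIF3I. The median gene lay at 16.94, so EIF3F and EIF3G were the only subunits of the 10 below it. The TOP median was 1.56 fractions below the non-TOP median (-1.56), and the TOP subunit was the lower of the pair in 21 of 25 pairs. With equal totals the gap was -3.03.

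The share of each mRNA in fractions 18 to 22 gives the same picture in percent. It was 62.9% for EIF3E, 61.1% for EIF3H, 54.2% for EIF3L, 52.7% for EIF3K and 32.4% for EIF3F, the MPN subunit with the lowest share. Among the non-TOP mRNAs it was 82.9% for EIF3I, 79.8% for EIF3B, 78.6% for EIF3D, 65.3% for EIF3A and 36.5% for EIF3G, the RNA-recognition-motif subunit of the separate module. EIF3F and EIF3G thus stood apart from the rest of their groups before any starvation.

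**Figure D1:**
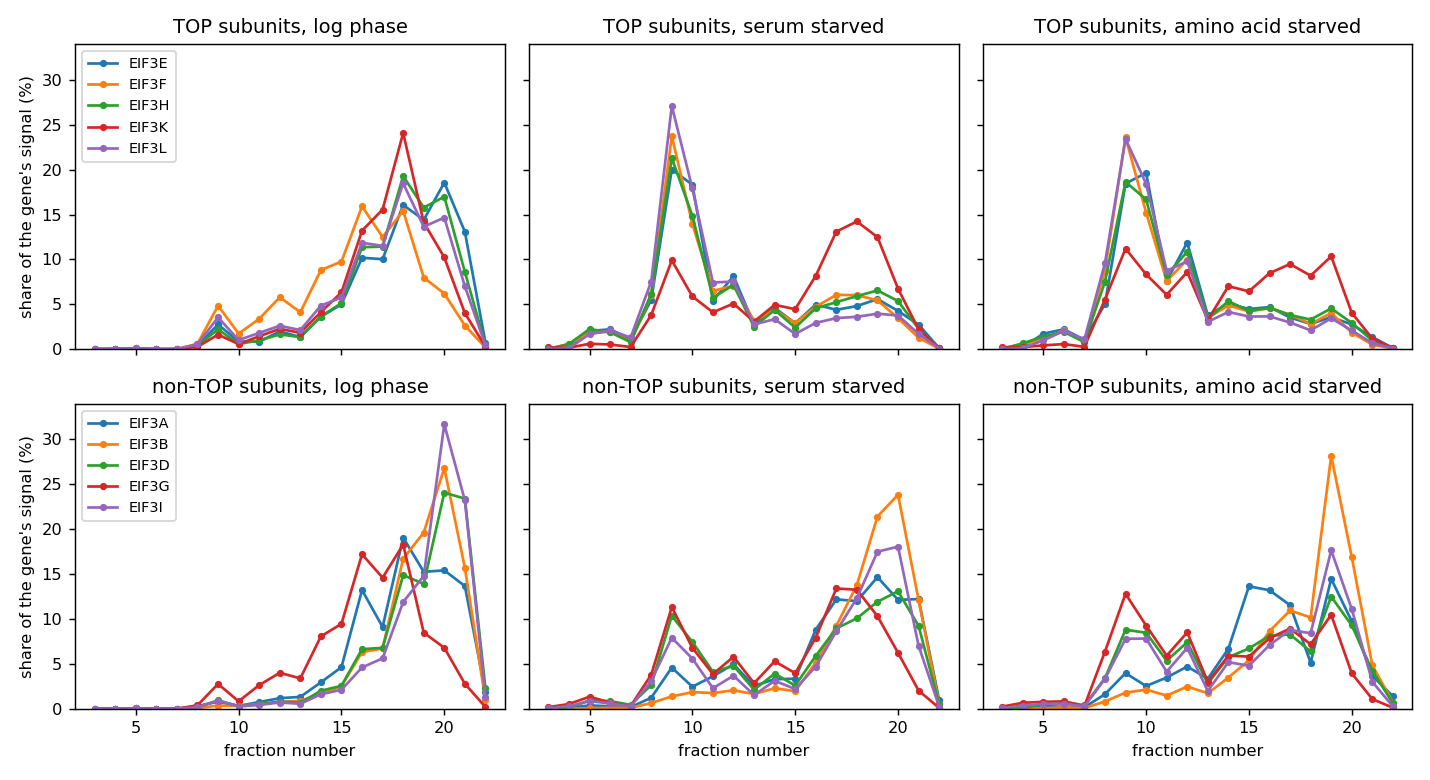
Share of each gene's signal (%, vertical axis) in fractions 3 to 22 (horizontal axis) for the 5 TOP subunits (upper row) and 5 non-TOP subunits (lower row) in the 3 gradients, 1 line per gene. EIF3E, EIF3F, EIF3H and EIF3L have their highest point at fraction 9 or 10 in both starved gradients, whereas EIF3B keeps its highest point at fraction 19 or 20.

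In both starvations, 4 of the 5 TOP mRNAs (EIF3E, EIF3F, EIF3H and EIF3L) had their highest ppm value in fraction 7, and none of the other 6 subunits did. This measure does not use the unknown fraction scale. EIF3E, a PCI core subunit also known as INT6, ranged from 33.6 through a median of 406 to 1455 ppm over the log phase fractions, with its highest value in fraction 21. Without serum its range was 17.0 through 638 to 1510, and without amino acids 25.8 through 655 to 1493, both highest in fraction 7. The height of the ppm maximum was thus close in all 3 gradients while its place moved from fraction 21 to fraction 7. On the authors' scale, fraction 7 held only 0.536% of the total signal without serum and 0.506% without amino acids. It held 1.13% and 1.06% of EIF3E signal, whose largest shares were 20.0% in fraction 9 and 19.6% in fraction 10. A ppm maximum in fraction 7 thus describes the make-up of that fraction and not where most of the mRNA lay.

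EIF3L, a PCI subunit that pairs with EIF3K at the edge of the core, went from a maximum of 800.5 ppm in fraction 20 to 1590 in fraction 7 without serum and 1238 in fraction 7 without amino acids. Its lowest values were 20.0, 8.91 and 6.68 and its medians 448, 486 and 414, in the same order. EIF3H, an MPN core subunit, had lowest, median and highest values of 17.6, 192 and 588 in log phase, with the maximum in fraction 20. These were 10.7, 379 and 612 without serum and 21.0, 366 and 613 without amino acids. The EIF3H median thus lay higher in both starved gradients, with maxima of similar height.

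EIF3F, the other MPN subunit, already had its log phase maximum in fraction 12, at 3411 ppm with a lowest value of 197 and a median of 1937. Its maxima in fraction 7 were 3866 without serum and 3520 without amino acids, with medians of 1935 and 1842. EIF3K kept its maximum in fraction 18 in all 3 gradients, at 603, 663 and 664 ppm. Its lowest values were 67.3, 87.6 and 91.5 and its medians 268, 342 and 336. EIF3K was the only TOP subunit whose maximum did not move.

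Of the 10889 genes tested, 0.542% had their maximum at fraction 12 or above in log phase and at fraction 7 or below without serum. Without amino acids 0.404% did. EIF3E, EIF3F, EIF3H and EIF3L are among them in both cases, and these limits were chosen after the maxima were seen. Among the non-TOP mRNAs, the maxima of EIF3A and EIF3D stayed in fraction 22 in all 3 gradients. That of EIF3B was in fraction 21, 21 and 20, that of EIF3I in 21, 20 and 20, and that of EIF3G in 14, 18 and 19.

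Positions were compared as shifts: the starved minus the log phase position, less the median difference of all tested genes. That median was -1.35 without serum and -1.80 without amino acids. The size rule, which is no test, was met at 1 fraction or more if the odd-numbered and the even-numbered fractions each gave at least 0.5 with the same sign. Both starvations are set against the same log phase gradient, so their values are not independent of each other.

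After serum starvation, 4 of the 5 TOP subunits met the size rule towards lower-numbered fractions, as did 2 of the 5 non-TOP subunits, where 9.86% of all tested genes did. None of the 10 met it towards higher-numbered fractions, where 5.7% of all genes did. EIF3L went from 17.08 to 11.52, a shift of -4.20 (-4.52 in odd and -3.86 in even fractions). EIF3E went from 17.72 to 12.32, a shift of -4.05 (-4.41 and -3.74). EIF3H went from 17.60 to 12.49, a shift of -3.76 (-4.18 and -3.37). Only 0.119% of tested genes lay at or below the shift of EIF3L, 0.174% at or below EIF3E and 0.285% at or below EIF3H.

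EIF3F shifted by -2.20 (-2.39 in odd and -1.97 in even fractions), from 15.76 to 12.21, though by 0.08 where positions were weighted by log2 signal. EIF3K had the smallest TOP shift, -0.80 (-0.98 and -0.63), and did not meet the rule, although with equal totals its shift of -1.69 did. In the non-TOP group, EIF3D, which can bind the cap of some mRNAs itself, went from 18.81 to 15.47, a shift of -1.99 (-2.49 and -1.53). EIF3I, a beta-propeller subunit, went from 19.03 to 16.20, a shift of -1.48 (-1.88 and -1.13). With equal totals EIF3D shifted by -3.18 and EIF3I by -2.96, further than EIF3F (-2.46) and EIF3K. Both met the rule, so the shift towards lower-numbered fractions was not limited to subunits of the TOP class.

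EIF3A, the large scaffold subunit, shifted by 0.08 (-0.22 in odd and 0.29 in even fractions), so the parts of its gradient differ in sign. EIF3G shifted by -0.33, and by -1.14 with equal totals, which met the rule. EIF3B, the beta-propeller scaffold of the separate module, shifted by 0.66, whereas with equal totals its shift was -0.98, so its direction relative to the median gene depends on the fraction scale. The TOP median shift was -3.76 and the non-TOP median -0.33, against 0 by construction over all genes. With equal totals these were -4.24 with 5 of 5 past the rule and -1.14 with 3 of 5, where 13.1% of all genes passed. The non-TOP median was -0.04 without fraction 9. The TOP subunit had the lower shift in 23 of 25 pairs, and in 21 with equal totals. Weighting by log2 signal gave medians of -0.25 and -0.06, and then 0 of the 10 met the rule. Those weights shrank the shifts themselves, that of EIF3E from -4.05 to -0.25. The share of all genes past the rule with them is not given here, so the 0 has no reference.

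**Figure D2:**
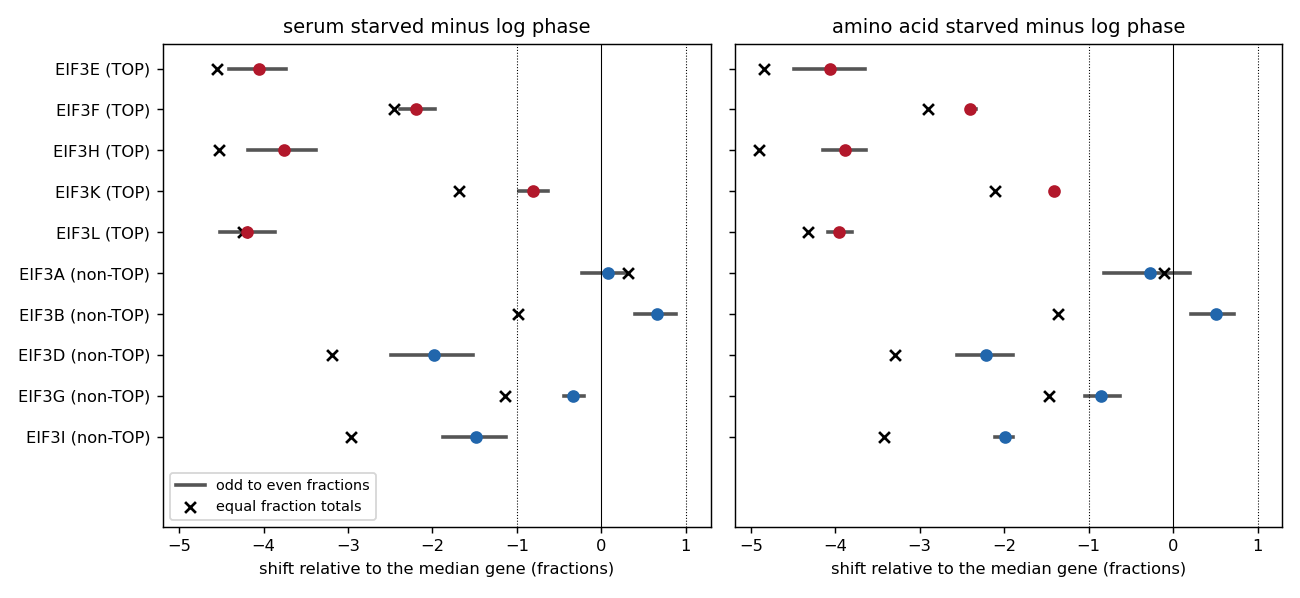
Shift of each subunit relative to the median gene (fractions, horizontal axis) in serum starvation (left) and amino acid starvation (right). Dots are the shifts over all fractions (red TOP, blue non-TOP), bars join the values from odd and even fractions, crosses are values with equal fraction totals, and dotted lines mark the size rule. EIF3E, EIF3H and EIF3L lie near -4 in both panels, and EIF3B lies on either side of 0 depending on the scale.

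After amino acid starvation, all 5 TOP subunits met the size rule towards lower-numbered fractions and 2 of the 5 non-TOP subunits did, where 9.57% of all tested genes passed. None of the 10 met it in the higher direction, where 6.84% of all genes did. EIF3E shifted by -4.06 (-4.49 in odd and -3.65 in even fractions), to a position of 11.86. EIF3L shifted by -3.95 (-4.08 and -3.81), to 11.32, and EIF3H by -3.89 (-4.14 and -3.64), to 11.91. EIF3F shifted by -2.41, to 11.55, though by 0.09 with log2 weights. These were the lowest positions of the 10 subunits in that gradient.

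EIF3K shifted by -1.41, from 17.15 to 13.94, with close values in odd (-1.38) and even (-1.43) fractions. Without fraction 9 its shift was -1.05 and no longer met the rule, because the value over odd fractions was then -0.47. EIF3D shifted by -2.22, to 14.79, and EIF3I by -1.996, to 15.23, and with equal totals by -3.29 and -3.42. EIF3G, at -0.86, did not meet the rule. It did without fraction 14 (-1.02), without fraction 19 (-1.01) and with equal totals (-1.46). EIF3A shifted by -0.27, with -0.82 in odd and 0.20 in even fractions, and by 0.19 with log2 weights. EIF3B shifted by 0.50, but by -1.37 with equal totals, so its direction again depends on the scale.

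The TOP median shift without amino acids was -3.89 and the non-TOP median -0.86, which was -0.51 without fraction 9. With equal totals the medians were -4.32 and -1.46, with 5 of 5 and 4 of 5 past the rule, where 16% of all genes passed. The TOP subunit had the lower shift in 23 of 25 pairs, as after serum starvation, and in 21 with equal totals. With log2 weights the medians were -0.19 and -0.06, with 0 past the rule. The shift furthest from 0 was then -0.46 (EIF3H), and this 0 too has no reference share of all genes. Both sets of totals therefore placed the TOP median below the non-TOP median, while the number of non-TOP subunits past the rule depended on them.

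The gap between the group positions was wider in both starved gradients than in log phase. Without serum the TOP median was 12.32 and the non-TOP median 16.20, a difference of -3.88. Without amino acids they were 11.86 and 15.23, a difference of -3.37, against -1.56 in log phase. The TOP subunit lay lower in 24 of 25 pairs in each starved gradient. The exception was EIF3K with EIF3G, at 15.00 against 14.57 without serum and 13.94 against 13.60 without amino acids. With equal totals the gap was -4.62 and -4.88, against -3.03 in log phase. With log2 weights it did not widen without serum (-0.65 in both) and was -0.68 without amino acids.

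**Figure D3:**
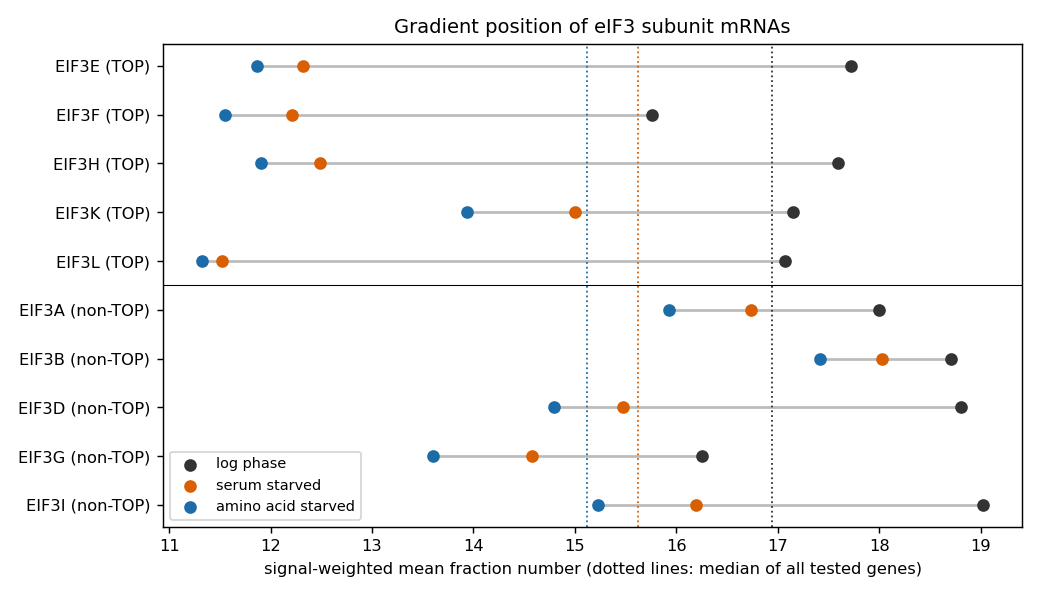
Position of each subunit mRNA (signal-weighted mean fraction number, horizontal axis) in log phase (black), serum starvation (orange) and amino acid starvation (blue), with the median of all tested genes as dotted lines in the same colours. EIF3E, EIF3F, EIF3H and EIF3L lie between 11.32 and 12.49 in both starved gradients, and every non-TOP subunit lies at 13.60 or above.

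Before centring, all 10 subunits lay at lower-numbered positions in both starved gradients than in log phase. With equal totals this held for EIF3D, EIF3I and the 5 TOP subunits. EIF3A went instead from 16.76 to 18.62 and 18.38, EIF3B from 18.53 to 19.09 and 18.89, and EIF3G from 13.91 to 14.32 and 14.17. The statement for those 3 non-TOP subunits thus turns with the scale. The median gene with equal totals itself went from 14.22 to 15.91 and 16.01. EIF3B and EIF3G rose less than it did, with centred shifts of -0.98 and -1.37 for EIF3B and -1.14 and -1.46 for EIF3G.

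In shares of signal, the TOP median in fractions 8 to 12 was 6.82% in log phase, then 57.3% in serum starvation and 62.6% in amino acid starvation. The non-TOP median was 2.71%, 22.6% and 29.9%. EIF3L had the highest share of the 10 in that pool in both starvations, 67.5% and 69.9%, after 9.54% in log phase. EIF3B had the lowest, 7.69% and 8.69%, after 2.05%, but with equal totals its share went the other way, from 5.83% to 4.26% and 2.87%. Correspondingly, fractions 18 to 22 held 13.1% and 8.37% of EIF3L signal but 71.7% and 60.8% of EIF3B signal. These shares move with the fraction totals, since the median gene itself went from 7.17% to 22.5% and 23.1% in fractions 8 to 12. The TOP median with equal totals went from 17.5% to 31.8% and 29.5% and the non-TOP median from 5.83% to 11.9% and 11.8%, while EIF3F stayed at 32.9%, 33.4% and 32.5%.

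The groups were next compared within each fraction, where the unknown scale cancels. The mean log2(ppm + 1) of the 5 TOP subunits minus that of the 5 non-TOP subunits was higher without serum than in log phase in each of fractions 3 to 11. It was lower in each of fractions 12 to 22. Without amino acids it was higher in fractions 3 to 13 and lower in fractions 14 to 22. The change thus had 1 crossing along each gradient.

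In log phase this difference was highest in fraction 9 at 3.16 and lowest in fraction 22 at 0.24. Without serum it ran from 3.78 in fraction 6 to -0.19 in fraction 22, and without amino acids from 3.88 in fraction 6 to -0.22 in fraction 22. The mean over fractions 3 to 7 was 2.16 in log phase, 3.03 in serum starvation and 3.15 in amino acid starvation. Over fractions 8 to 12 it was 2.81, 3.22 and 3.33. Over fractions 13 to 17 it was 2.33, 1.82 and 1.63, and over fractions 18 to 22 it was 1.04, 0.37 and 0.32. The starved gradients thus differed from log phase in the same direction in each pool.

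The change against log phase in fractions 3 to 7 was 0.87 without serum, and between 0.57 and 1.10 when each subunit in turn was left out. In fractions 18 to 22 it was -0.67, and between -0.79 and -0.55. Without amino acids these changes were 1.00, between 0.67 and 1.26, and -0.72, between -0.87 and -0.58. No subunit alone set the sign in any of the 4 pools of either starvation. In fractions 8 to 12, however, the change without serum fell from 0.40 to 0.13 with EIF3B left out. In fractions 3 to 7 without serum, the ppm of EIF3A (mean log2 change -1.56) and EIF3B (-1.40) fell. Those of EIF3D (0.38), EIF3G (0.54) and EIF3I (0.25) rose there, as did those of the TOP subunits (0.25 to 0.95). Without amino acids the signs were the same, with EIF3A at -1.73 and EIF3B at -1.66. EIF3A and EIF3B were not left out together, so whether the change there holds without both was not tested. Values in fractions 3 to 7 are less certain. In log phase fraction 6 held 0.00943% and fraction 7 held 0.0174% of the total, and the EIF3A signal in fraction 6 was 0.71.

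**Figure D4:**
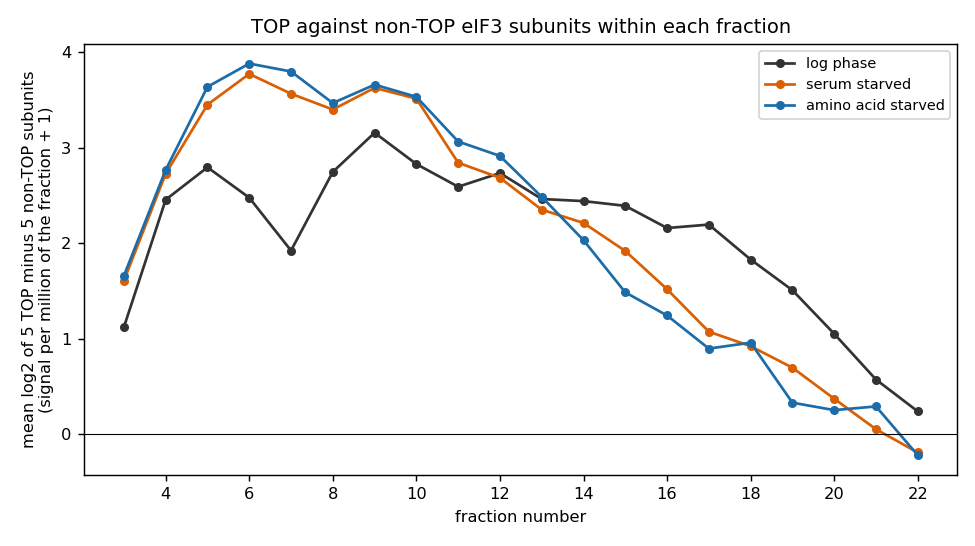
Mean log2(ppm + 1), with ppm the signal per 1000000 of the fraction's total, of the 5 TOP subunits minus that of the 5 non-TOP subunits (vertical axis) by fraction number (horizontal axis), 1 line per gradient. Both starved lines lie above the log phase line in fractions 3 to 11 and below it from fraction 14 on.

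The single subunits differed in which end of the gradient carried this change. In fractions 8 to 12, the mean log2 change in ppm without serum was 1.62 for EIF3H, 1.48 for EIF3E and 1.19 for EIF3L. In fractions 18 to 22 it was -0.39 for EIF3H, -0.65 for EIF3E and -0.75 for EIF3L. These 3 core subunits were thus higher at one end and lower at the other. EIF3D and EIF3I were also higher in fractions 8 to 12, by 1.89 and 1.42. Their means over fractions 18 to 22 were higher as well, by 0.45 and 0.28. Within that pool, however, EIF3I was lower in fraction 21 (1787 to 1329 ppm) and fraction 22 (1429 to 978). EIF3D was lower in fraction 22 (1412 to 1365 ppm).

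EIF3F changed by 0.60 in fractions 3 to 7, 0.14 in fractions 8 to 12, -0.47 in fractions 13 to 17 and 0.16 in fractions 18 to 22. EIF3K was above its log phase ppm value in 18 of the 20 fractions without serum and in all 20 without amino acids, by a mean of 0.20 to 0.37 and 0.14 to 0.44 over the 4 pools. EIF3B had lower values at the low end, with -1.40 in fractions 3 to 7 and -0.54 in fractions 8 to 12 without serum, and 0.03 in fractions 18 to 22. Without amino acids these values for EIF3B were -1.66, -1.16 and -0.22. The fall in fractions 3 to 7 was shared by EIF3A (-1.56 without serum and -1.73 without amino acids) and by EIF3J (-1.39 and -1.32). The change of all genes in these pools is not given here. With equal totals the position of the median gene rose by 1.545 without serum and 1.723 without amino acids. Lower values at the low end thus need not be particular to these subunits.

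The ppm profiles over all 60 fractions were compared among the subunits by Pearson's r of log2(ppm + 1). The fractions share gradients, libraries of neighbouring material and an overall trend, so r is given as a description. EIF3E, EIF3H and EIF3L were the closest TOP subunits, with r of 0.930 for EIF3E with EIF3L, 0.929 for EIF3E with EIF3H and 0.874 for EIF3H with EIF3L. EIF3F had r of 0.848 with EIF3L. EIF3K had r of 0.843 with EIF3G and 0.813 with EIF3B, but 0.247 with EIF3F and 0.359 with EIF3L, its partner in the core.

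In the non-TOP group, EIF3D with EIF3I had r of 0.929 and EIF3A with EIF3B 0.927. The median r was 0.72 over the 10 TOP pairs, 0.79 over the 10 non-TOP pairs and 0.42 over the 25 pairs across groups. With the TOP subunits, EIF3D had r of 0.773 (EIF3E), 0.720 (EIF3H), 0.711 (EIF3K), 0.612 (EIF3L) and 0.278 (EIF3F). The 3 subunits with a pyrimidine run at their RefSeq start shifted by -2.20 (EIF3F), -0.80 (EIF3K) and -1.99 (EIF3D) without serum. The 2 without one shifted by -1.48 (EIF3I) and 0.66 (EIF3B). With equal totals the shifts were -2.46 (EIF3F), -1.69 (EIF3K) and -3.18 (EIF3D) with a run, and -2.96 (EIF3I) and -0.98 (EIF3B) without one. EIF3I then shifted further than EIF3F and EIF3K.

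For reference, tested genes with such a run at their RefSeq start had a median shift of -0.39 without serum and -0.45 without amino acids, and 29.3% and 29.9% of them met the size rule in the lower direction. Without a run the medians were 0.03 and 0.02, and the shares 8.07% and 8.08%. Ribosomal protein mRNAs, the classical TOP mRNAs, had median shifts of -3.02 and -3.11, with 78 and 77 of 79 past the rule. EIF3E, EIF3H and EIF3L thus shifted further than the median ribosomal protein mRNA, and EIF3F and EIF3K less far. The medians of the TOP subunits, -3.76 and -3.89, were not tested against these.

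The genes outside eIF3 whose profile was most like the TOP mean over the 60 fractions were HNRNPA1 (r = 0.960), IGBP1 (0.930), EEF1A1 (0.923), EIF2A (0.917) and ZNF277 (0.908). EEF1A1 encodes elongation factor eEF1A, whose mRNA is a known TOP mRNA. For the non-TOP mean they were PSMC3 (r = 0.982), FDFT1 (0.981), TCF25 (0.981), PLK1 (0.978) and PFKL (0.975).

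Between the starved gradients, no subunit of the 10 met the size rule. The shift between amino acid and serum starvation, relative to a median of -0.47 over all genes, lay between -0.59 (EIF3K) and 0.27 (EIF3L; -0.03 with equal totals). Of all tested genes, 1.06% met it in the lower and 2.01% in the higher direction. The TOP median was -0.11 and the non-TOP median -0.34. EIF3K (-0.59), EIF3G (-0.51) and EIF3I (-0.50) had the lowest values.

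Levels were compared as signal summed over fractions 3 to 22 per 1000000 of the gradient's total. These sums carry the fraction scale. EIF3E had 601.5 in log phase, 716 in serum starvation and 715 in amino acid starvation. EIF3L had 550.2, 651 and 578, EIF3H 349, 416 and 399, EIF3F 2304, 2472 and 2208, and EIF3K 429, 375 and 348. EIF3K was the only TOP mRNA whose level was highest in log phase, but with equal totals its log phase level was the lowest of the 3 (279.9, 334 and 335).

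In the non-TOP group, EIF3B had 395 in log phase, 224 in serum starvation and 159.5 in amino acid starvation, but 278, 275 and 231 with equal totals. EIF3A had 21.7, 19.7 and 14.9, EIF3D 245, 309 and 264, EIF3G 451, 390.3 and 356, and EIF3I 416, 431 and 435. On the log2 scale with a pseudocount of 1, the median gene changed by -0.43 without serum and -0.59 without amino acids. Relative to it, the TOP subunits had a median of 0.67 and 0.66 and the non-TOP subunits of 0.30 and 0.25. The groups did not stand apart with equal totals, at 0.54 and 0.44 for TOP and 0.55 and 0.41 for non-TOP subunits.

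None of the 10 met the level rule of 1 on the log2 scale with at least 0.5 in odd and even fractions. Without serum, 3.06% of all genes with a measured level met it upwards and 0.903% downwards, and without amino acids 4.96% and 2.84%. EIF3B was at -0.38 without serum and -0.72 without amino acids relative to the median gene, but at 0.17 and -0.08 with equal totals, so its direction in serum starvation depends on the scale. Every other subunit of the 10 was above the median gene in both starvations, between 0.08 (EIF3A without amino acids) and 0.84 (EIF3E without amino acids). With equal totals these 9 were above it too, the lowest being EIF3F without amino acids at 0.07.

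**Figure D5:**
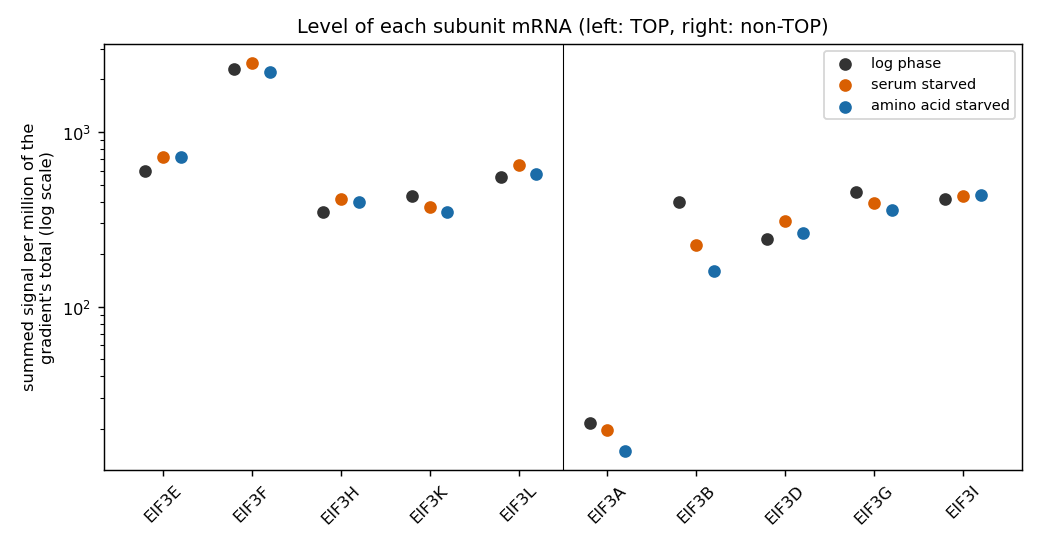
Level of each subunit mRNA, as signal summed over fractions per 1000000 of the gradient's total (log scale, vertical axis), for the 5 TOP subunits on the left and the 5 non-TOP subunits on the right. Points are the log phase (black), serum-starved (orange) and amino acid-starved (blue) gradients, and EIF3B lies at 395, 224 and 159.5 in that order.

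The remaining eIF3 subunits, which belong to neither group here, were spread between these patterns. EIF3M, a PCI core subunit, has a run of 7 pyrimidines at its RefSeq start and shifted by -1.15 without serum and -1.42 without amino acids, though by 0.02 and 0.03 with log2 weights. EIF3C, a scaffold of the core, has none and shifted by -1.86 and -2.04. EIF3CL, a near-identical copy of EIF3C, shifted by -1.36 and -2.81, and these genes cannot be told apart with certainty because reads could be divided between them. All 3 met the size rule in both starvations.

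EIF3J, the loosely attached subunit, shifted by 0.99 and 0.82, and by 0.03 and -0.02 with equal totals. It did not meet the rule, and its direction without amino acids depends on the scale. EIF3CL was also the only eIF3 row to meet the rule between the starvations, at -1.43, though not with equal totals (-0.78). The levels of EIF3C (log2 differences of 1.04 and 1.08 from the median gene) and EIF3CL (1.25 and 1.48) met the level rule in both starvations. With equal totals neither reached 1 (0.85 and 0.85 for EIF3C, 0.91 and 0.91 for EIF3CL).

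The other translation initiation factors moved in both directions. Of 30 tested, 5 met the size rule lower and 6 higher without serum, with a median of 0.16, where 9.86% and 5.7% of all tested genes did. Without amino acids 5 met it lower and 7 higher, with a median of -0.15, where 9.57% and 6.84% of all genes did. With equal totals the counts were 7 lower and 2 higher, and 8 lower and 2 higher, with medians of -0.45 and -0.63. The shares of all genes were then 13.1% and 16% lower. Those of the 10889 genes past the rule in the higher direction went from 621 to 1318 without serum and from 745 to 1419 without amino acids. The counts of factors in the higher direction thus depend on the fraction scale more than those in the lower direction.

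The lowest shifts were those of EIF4B, which stimulates the eIF4A helicase, at -3.46 without serum and -3.26 without amino acids, and of EIF2A at -3.40 and -3.51. EIF2S3, the gamma subunit of eIF2, shifted by -2.80 and -2.86 and the helicase EIF4A2 by -1.70 and -1.51. With equal totals EIF4A2 shifted by -1.30 and -0.80, the latter under the rule. EIF2D shifted by -1.41 and -1.10, but by -0.11 and -0.04 with equal totals. EIF4B, EIF2A and EIF2S3 thus lay in the range of EIF3E, EIF3H, EIF3L and EIF3F, with shifts between -4.20 and -2.20.

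In the higher direction, EIF4E, the cap-binding factor, shifted by 1.56 and 2.68 and was the only other factor to meet the rule between the starvations, at 1.14. EIF2S2 shifted by 1.45 and 1.40. EIF2B3 shifted by 1.43 and 1.34 and EIF5 by 1.15 and 1.01, but with equal totals by 0.52 and 0.57 and by 0.76 and 0.78, under the rule. EIF4A3 shifted by 1.69 and 1.64, but by -0.11 and 0.02 with equal totals, and EIF5A by 1.01 and 1.15, but by -0.45 and -0.41 with equal totals. EIF1AX met the rule without amino acids, at 1.63, but not with equal totals (0.78). None of the 10 eIF3 subunits shifted as far as these in the higher direction.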

How the data were processed

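Poly(A)+ RNA of 60 fractions was measured; the 3 lysate samples were not analysed here. The submitters' processing notes name kallisto 0.44.0, sleuth 0.29.0 and hg38. The authors deposited 1 signal per gene symbol and fraction, in a table that the file name calls TPM; its columns do not sum to 1000000, and how each fraction was scaled is not stated. The 29 ERCC rows and 1 luciferase spike-in row were left out, which left 11074 genes. Positions, shifts and levels were computed with Python 3.11.15, pandas 2.3.3 and numpy 2.4.6. Shifts were compared over 10889 genes that averaged 5 or more per gradient and were above 0 in 15 or more of the 20 fractions. Levels were filtered separately, from all 11074 genes, and needed 5 per 1000000 in either gradient. This left 8199 genes for serum starvation against log phase and 8202 for amino acid starvation. Only the position shifts and the size rule were tried on simulated data, made from log phase profiles. Those data held no change of fraction scale between gradients. Precision is unknown because depth is unknown; odd and even fractions stand in for a spread, within 1 gradient.

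The members and lists were chosen with earlier results of these data known. Genes named were the 10 subunits, EIF3C, EIF3CL, EIF3J and EIF3M, other initiation factors that met the size rule or had the 2 lowest or highest shifts, and the 5 genes most correlated with each group. Ribosomal proteins (79) served as a reference list. The 15 bases on either side of each annotated start were read from RefSeq promoters on GRCh38.p14 on the gene's strand. Alternatives were equal fraction totals, equal spike-in sums, log2 weights, no centring, another filter or pseudocount, and each fraction left out.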

Additional observations from a re-analysis of the deposited data

How the results depend on the processing

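No paired analysis was possible because each condition had 1 gradient and the labels give no replicate numbers shared between groups; fractions are not replicates, and no setting carries a test. Weighted by log2 signal, the TOP median shift was -0.25 without serum, -0.19 without amino acids, and the non-TOP median -0.0570 and -0.0605, with 0 subunits past the size rule in each case. Shifts were smaller with these weights, and the share of all genes past the rule is not given for them. The non-TOP median between the starvations was then 0.0154, and the TOP minus non-TOP gap -0.65 in log phase, -0.65 in serum starvation and -0.68 in amino acid starvation. EIF3F reversed with log2 weights, to 0.0831 without serum and 0.0873 without amino acids. Without centring, the TOP medians were -5.11, -5.69 and -0.58 (serum, amino acids and between the starvations) and the non-TOP medians -1.68, -2.66 and -0.81, with 4 and 5 non-TOP subunits past the rule. The median gene itself was then at -1.35 without serum and -1.80 without amino acids, so these counts do not set the subunits apart from other genes. With equal totals, the non-TOP medians were -1.14 and -1.46, the latter with 4 past the rule, the TOP median between the starvations -0.33, and the gaps -3.03, -4.62 and -4.88. With equal spike-in sums, the non-TOP median without amino acids was -0.56 and the TOP median between the starvations -0.30. The median level difference of TOP subunits without serum was 0.54 with equal totals, 0.35 with equal spike-in sums, 0.24 without centring and 0.60 without the filter. Without amino acids it was 0.44, 0.25, 0.07 and 0.53. For non-TOP subunits it was 0.55 with equal totals and -0.13 without centring in serum starvation, and 0.41, -0.34 and, without the filter, 0.12 in amino acid starvation. The cause was not tested. With each fraction left out in turn, the TOP median shift lay between -3.96 and -3.23 without serum and between -4.08 and -3.54 without amino acids, and the non-TOP median between -0.44 and -0.0405 and between -1.02 and -0.51. Between the starvations the ranges were -0.32 to 0.0586 and -0.45 to -0.0807. The gap ranged from -1.97 to -1.15 in log phase, from -4.08 to -3.38 in serum starvation and -3.62 to -2.85 in amino acid starvation. Levels ranged from 0.34 to 0.83 and 0.38 to 0.81 for TOP and from 0.27 to 0.34 and 0.14 to 0.34 for non-TOP subunits. Counts past the rule were 4 and 4 to 5 for TOP, and 2 and 2 to 3 for non-TOP subunits. Of 120 shifts of single subunits under settings other than leaving out 1 fraction, 10 had the opposite sign. Of these, 2 were those of EIF3F, and the other 8 were of EIF3A and EIF3B, whose shifts were under 1 fraction.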
